A study of Rattus norvegicus with 12 samples.

Results

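The genes of prostaglandin synthesis, inactivation and reception were followed through all libraries of cultured rat atrial fibroblasts. They comprise 10 of the 22850 features in the expression tables: the cyclooxygenases Ptgs1 and Ptgs2, the terminal synthases Ptgis, Ptges, Hpgds and Ptgds, the inactivating enzyme Hpgd, and the receptors Ptger2, Ptger4 and Ptgir. The genes were selected by symbol as members of the pathway, with earlier results of these same libraries known. Which measured values drew attention to them is not on record, so fold changes and adjusted p-values of these genes are descriptions that place each one among all genes, and not independent evidence.

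The cells were primary atrial fibroblasts of newborn Sprague-Dawley rats aged 1 to 3 days, enriched by their quicker attachment to plastic and not sorted. All were kept in 2% FBS and exposed for 48 h to 1 μmol/L angiotensin II (AngII), the main effector hormone of the renin-angiotensin system. The 4 AngII libraries had no other treatment, the 4 AngII+HNG libraries also received 10 μmol/L HNG, a Gly14 analogue of the mitochondria-derived peptide humanin, and the 4 AngII+MOTS-c libraries 5 μmol/L MOTS-c, another mitochondria-derived peptide, in each case from 1 h before AngII. Because every group carries AngII, and no untreated or peptide-only libraries were analysed here, the comparisons show differences between peptide-treated and untreated cells under AngII and not the action of AngII. The doses of the peptides differ, so HNG against MOTS-c compares these conditions and not equal doses.

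Cyclooxygenases convert arachidonic acid, released from membranes by phospholipases, into the unstable intermediate prostaglandin H2. Terminal synthases turn this intermediate into separate products: Ptgis makes prostacyclin, Ptges makes prostaglandin E2, and Hpgds and Ptgds make prostaglandin D2. The products leave the cell, act on G protein-coupled receptors and are then taken up again and oxidised by Hpgd. In the heart, receptors coupled to cyclic AMP, among them Ptger2, Ptger4 and Ptgir, are known to restrain fibroblast activation.

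Sequencing depth was 27960586 to 38322354 counts per library, at which 3 counts correspond to 0.0783 to 0.107 CPM (the count per 1000000 counts of the library, with library size adjusted by TMM in the values below). All fibroblast markers examined (11 of 11) were present, but the cultures were not pure: cardiomyocyte markers led by Myh6 and Nppa summed to 6733 to 8844 CPM over the libraries. The study's methods describe the 4 libraries of a group as biological replicates. In the library names, libraries 2 and 3 of each group share a number, which neither the labels nor the methods explain, and they were counted here as separate replicates, with their sum as an alternative. AngII+HNG 3 stood apart: its counts differed from those of the other HNG libraries by 14.2 to 19.1 chi-square units per gene, against 4.32 to 8.84 for every other pair of libraries in a group. The lowest value, 4.32, was that of AngII 2 and 3. No pair was as close as 1 library sampled again would be (about 1 unit), so none was counted as a duplicate, but this does not show that libraries 2 and 3 came from separate cultures, and if they did not, n = 4 is too high. Without AngII+HNG 3, 932 genes in place of 869 were called for HNG against AngII and 625 in place of 637 between the peptides. The effect of leaving it out is given below with Ptges, Slco2a1, Ptgfr, Ptgr1, Dusp1, Ccl2 and Ccl7. It is not given for the called cell type markers.

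Per unit of gene length, Ptgis was by far the most abundant of the 10 transcripts. Its level was 54.9 to 68.3 FPKM (fragments scaled to gene length in kilobases and to library size), with a mean of 59.3 FPKM over the 12 libraries, a mean level above that of 94.0% of the 18385 features with any count. The cyclooxygenase Ptgs1 followed at a mean of 4.75 FPKM and stood below Ptgis in 12 of 12 libraries. It stood above the inducible cyclooxygenase Ptgs2, with a mean of 2.20 FPKM, in 12 of 12 libraries too.

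Below these the order was less clear. Mean levels were 1.92 FPKM for the prostaglandin E2 receptor Ptger4, 1.66 FPKM for Hpgds, 1.50 FPKM for Ptges and 1.31 FPKM for Ptgds. Neighbours in this order overlapped: Ptgs2 exceeded Ptger4 in 8 of the 12 libraries, Ptger4 exceeded Hpgds in 10, Hpgds exceeded Ptges in 8 and Ptges exceeded Ptgds in 8. The prostacyclin receptor Ptgir had a mean of 1.01 FPKM, below Ptgds in 9 of 12 libraries. The lowest levels were those of Hpgd, with 0.597 FPKM, and Ptger2, with 0.441 FPKM, and Hpgd exceeded Ptger2 in 9 of 12 libraries.

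**Figure D1:**
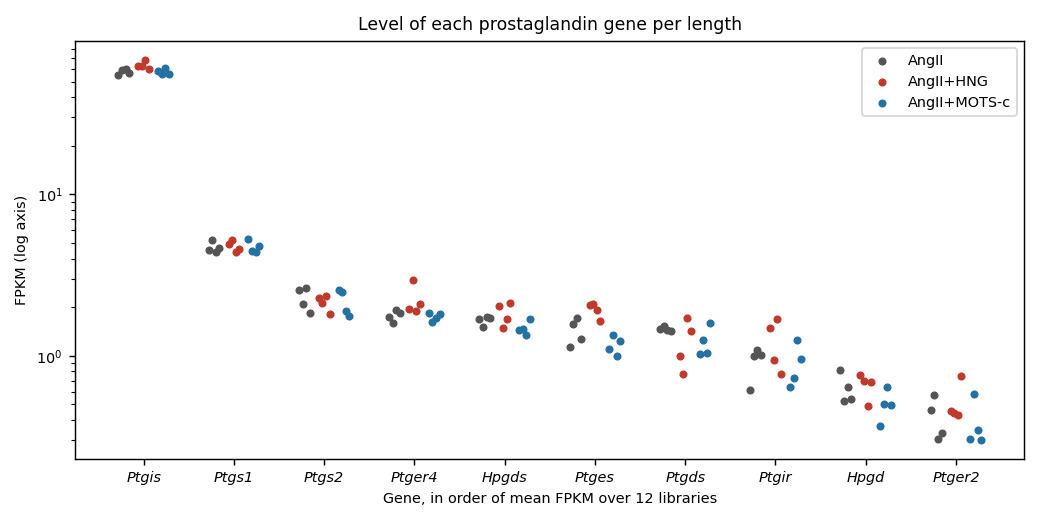
Level of the 10 genes in FPKM on a log axis, with 1 point per library coloured by group and genes in order of their mean over 12 libraries. Ptgis stands alone between 54.9 and 68.3 FPKM, Ptgs1 follows, and the ranges of the other 8 genes overlap with a neighbour.

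As shares, Ptgis took 92.0 to 94.7% of the summed FPKM of Ptgis, Ptges, Hpgds and Ptgds, the 4 terminal synthases among the 10 genes, in every library. This sum leaves out synthases outside the 10 genes. Of these, Ptges3 (131 to 160 FPKM) and Akr1b1 (89.9 to 107 FPKM) stood above Ptgis. Ptgs1 took 62.5 to 73.3% of the summed FPKM of both cyclooxygenases, with wide overlap between the groups. A share of transcripts is no share of enzyme activity, which was not measured.

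Across all 10 genes, none passed the test between AngII+HNG and AngII, none between AngII+MOTS-c and AngII, and Ptges alone between AngII+HNG and AngII+MOTS-c. Calls were made at an adjusted p below 0.05 in the quasi-likelihood test of edgeR, adjusted over all genes by the Benjamini-Hochberg method. By that rule 5.98% of the 14524 genes tested were called between AngII+HNG and AngII, 0.0069% of 14488 between AngII+MOTS-c and AngII, which is the single gene Trim15 (named after its value was seen), and 4.41% of 14448 between the peptides. At an unadjusted p below 0.05 the members were 2 of 10 for HNG (20.3% of all genes), 1 of 10 for MOTS-c (5.05% of all genes) and 3 of 10 between the peptides (19.3% of all genes). DESeq2 called 0, 0 and 1 members in the same order.

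Against AngII, HNG gave a positive log2 fold change for 7 of the 10 genes and for 51.3% of all genes tested, with a median of 0.080 beside 0.0043. MOTS-c gave a positive one for 2 of 10 (49.6% of all genes) and a negative one for 8, with a median of -0.094 beside -0.00076. Both comparisons use the same 4 AngII libraries. Between AngII+HNG and AngII+MOTS-c, 7 of 10 were higher with HNG (50.6% of all genes), with a median of 0.23 beside 0.0023.

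**Figure D2:**
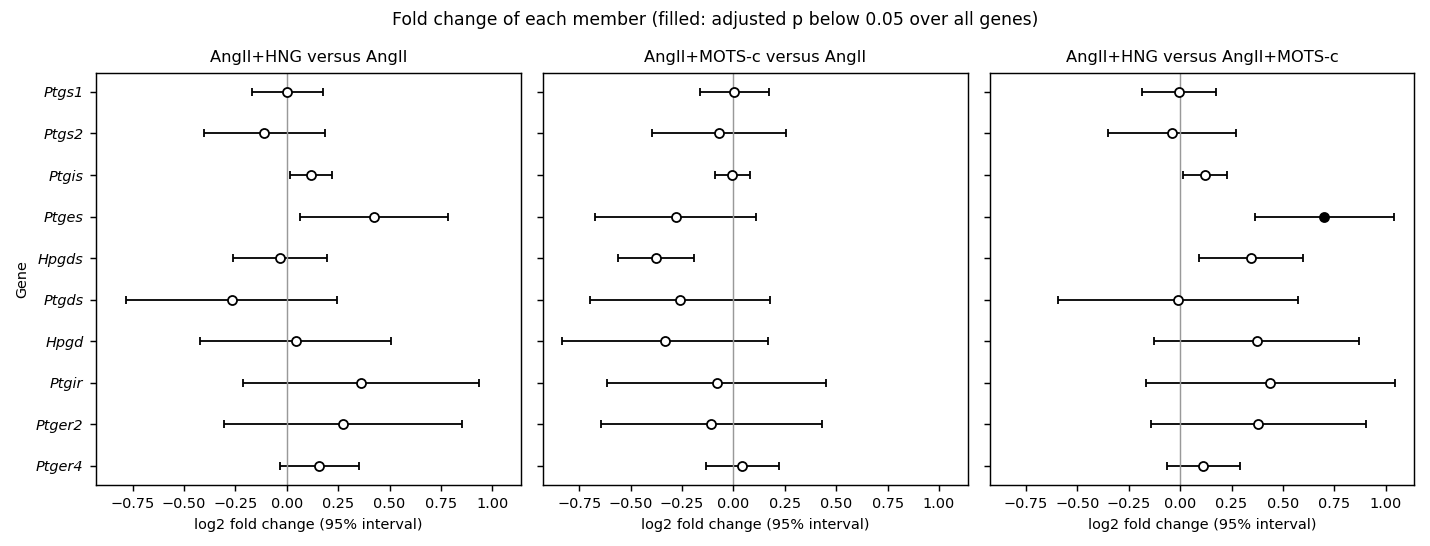
Log2 fold change of each gene (points) with its 95% interval (bars) from edgeR in the 3 comparisons. The only filled point, meaning an adjusted p below 0.05 over all genes, is Ptges between AngII+HNG and AngII+MOTS-c at 0.70.

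The cyclooxygenases stood at overlapping levels in the 3 groups. Ptgs1, the constitutive enzyme, was at 13.3, 15.3, 12.9 and 13.8 CPM in the AngII libraries, 14.2, 15.1, 12.8 and 13.2 CPM with HNG and 15.4, 13.0, 12.9 and 14.1 CPM with MOTS-c. The groups overlapped throughout, and the log2 fold change was 0.0032 for HNG and 0.0048 for MOTS-c, each against AngII. The 95% interval was -0.17 to 0.17 for HNG and -0.16 to 0.17 for MOTS-c, so that a difference of that size in either direction remains possible.

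Ptgs2, which is induced by inflammatory signals and growth factors, was at 4.86, 4.02, 5.05 and 3.57 CPM with AngII, 4.34, 4.04, 4.38 and 3.46 CPM with HNG, and 4.87, 4.72, 3.65 and 3.37 CPM with MOTS-c. The groups overlapped, and library 4 was the lowest of its group in all 3 groups. The log2 fold change against AngII was -0.11 (95% interval -0.40 to 0.19, adjusted p = 0.727) for HNG and -0.071 (95% interval -0.40 to 0.26, adjusted p = 0.974) for MOTS-c.

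**Figure D3:**
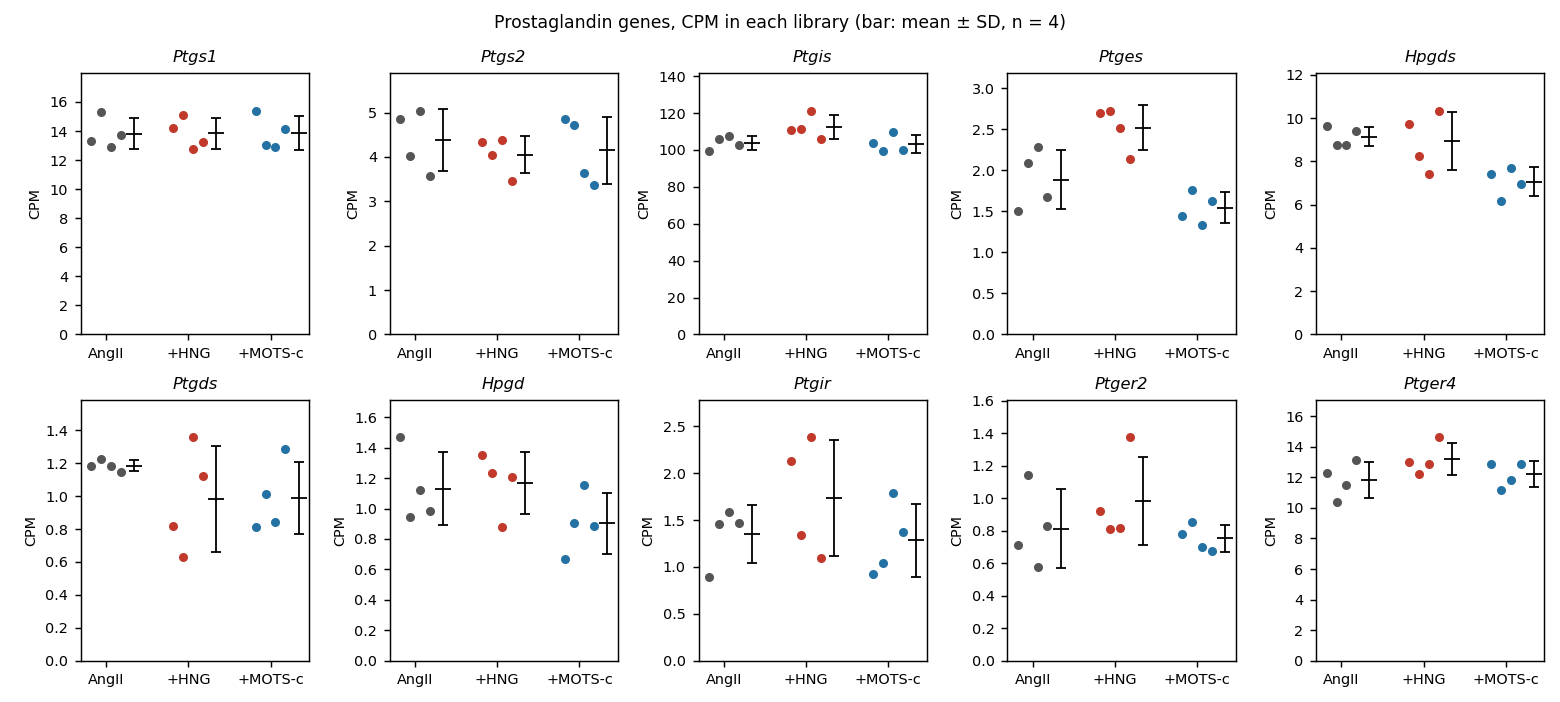
CPM of the 10 genes in every library (points, in order of the replicate number within a group) with the group mean and SD (n = 4) at the right of each group, each axis starting at 0. Ptges is higher in all 4 AngII+HNG libraries than in any AngII+MOTS-c library, and the 4 AngII+MOTS-c libraries of Hpgds lie below all AngII libraries.

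Ptges, the inducible microsomal prostaglandin E synthase that works with Ptgs2, was the one member called between the peptides. It was at 1.50, 2.08, 2.28 and 1.68 CPM with AngII, 2.70, 2.73, 2.51 and 2.14 CPM with HNG, and 1.45, 1.76, 1.33 and 1.62 CPM with MOTS-c. Every HNG library lay above every MOTS-c library, which was so for 12.5% of all genes tested in either direction, while the AngII libraries overlapped with both. Group means were 1.89 ± 0.360, 2.52 ± 0.272 and 1.54 ± 0.188 CPM in the same order (SD, n = 4).

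Between AngII+HNG and AngII+MOTS-c, Ptges was higher with HNG by 0.70 on the log2 scale, a fold of 1.63 (SE of log2 0.16, 95% interval 0.36 to 1.04, edgeR adjusted p = 0.0236). Against AngII it had a log2 fold change of 0.42 (SE 0.17, adjusted p = 0.173) with HNG and of -0.28 (SE 0.18, adjusted p = 0.924) with MOTS-c, neither past the threshold. The counts behind these levels were 38 to 104 per library, and counting error alone gives a coefficient of variation of 10.9 to 13.9%, beside a measured 10.8 to 19.1% within the groups. The call between the peptides was lost when libraries 2 and 3 of each group were summed (adjusted p = 0.0626), with the library-name number as a replicate block (0.120), and without AngII+HNG 1 (0.0546), AngII+HNG 2 (0.0847), AngII+MOTS-c 1 (0.0811) or AngII+MOTS-c 3 (0.0778), while the log2 fold change over all alternatives on counts was 0.63 to 0.78. Without AngII+HNG 3 it was 0.70 (adjusted p = 0.0420). On log2(FPKM + 1), a scale that understates changes of low genes, it was 0.43 (limma adjusted p = 0.0117). The library-name number leaves library 1 of AngII+MOTS-c without a partner in the other groups, so that in comparisons with MOTS-c this block sets aside library 1 of both groups.

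Relative to its partner enzyme, Ptges stood higher with HNG in every library. The ratio of Ptges to Ptgs2 in CPM was 0.308 to 0.518 with AngII, 0.572 to 0.675 with HNG and 0.298 to 0.482 with MOTS-c, so the HNG range did not overlap with the others. The ratio of Ptgis to Ptges in FPKM was 34.6 to 48.8 with AngII, 29.8 to 36.4 with HNG and 41.3 to 61.1 with MOTS-c, and the HNG and MOTS-c ranges were apart. These ratios were formed after the values of Ptges were seen and were not tested. The summed level of 16 macrophage markers, none at 0 in all libraries and led by Lyz2, was also higher in every HNG library (425 to 554 CPM) than in any AngII (319 to 388 CPM) or MOTS-c library (315 to 380 CPM), and its part in the level of Ptges was not tested. In bulk libraries such as these, more cells of a type and more RNA per cell cannot be told apart.

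The promoter of Ptges is shown with those of Slco2a1 and Ptgfr, the pathway genes outside the 10 that passed the test against AngII, to let their proximal sequence be compared. Each runs from 250 bases before to 50 bases after the RefSeq transcript start in GRCr8, 5′ to 3′ on the gene's strand, and capitals mark a GC box (GGGCGG) or a TATA box (TATAAA). The coordinates are those of the RefSeq table, since the build behind the counts is not given in the sources used here.
Ptges, chr3:34586938-34587237, minus strand: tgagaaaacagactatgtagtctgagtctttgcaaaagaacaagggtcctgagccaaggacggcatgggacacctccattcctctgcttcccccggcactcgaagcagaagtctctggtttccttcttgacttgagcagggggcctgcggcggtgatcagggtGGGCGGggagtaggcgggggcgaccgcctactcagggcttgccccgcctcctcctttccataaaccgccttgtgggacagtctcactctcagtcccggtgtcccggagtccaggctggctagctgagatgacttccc
Slco2a1, chr8:112467489-112467788, plus strand: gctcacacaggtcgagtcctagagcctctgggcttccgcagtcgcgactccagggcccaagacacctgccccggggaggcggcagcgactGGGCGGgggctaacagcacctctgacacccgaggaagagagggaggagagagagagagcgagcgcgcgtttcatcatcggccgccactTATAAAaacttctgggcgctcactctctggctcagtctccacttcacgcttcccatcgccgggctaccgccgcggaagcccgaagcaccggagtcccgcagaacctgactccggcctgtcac
Ptgfr, chr2:243425574-243425873, minus strand: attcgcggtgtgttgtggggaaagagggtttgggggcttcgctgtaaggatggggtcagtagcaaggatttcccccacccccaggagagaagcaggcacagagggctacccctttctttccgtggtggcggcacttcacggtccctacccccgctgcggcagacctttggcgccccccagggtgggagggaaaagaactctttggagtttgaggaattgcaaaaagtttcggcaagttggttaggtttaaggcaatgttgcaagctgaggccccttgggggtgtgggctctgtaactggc
Counted from the transcript start, the GC box of Ptges lies at -87 to -82. Slco2a1 holds a GC box at -160 to -155 and a TATA box at -72 to -67. None of the motifs searched was found in the Ptgfr window.

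RefSeq promoters were matched for 8 of the 10 genes, Hpgds and Ptgis not among them. GGGCGG was present on either strand in 5 of the 8 windows (Ptgs2, Ptges, Ptgds, Hpgd and Ptgir) and in 33.1% of 33469 promoters of the same length. CCAAT was found in Ptgs2 alone (37.5% of all promoters) and the short cyclic AMP site TGACG in Hpgd alone (21.2%). The TATA box TATAAA (14.2%), the full cyclic AMP element TGACGTCA (1.83%), which contains the short one, the AP-1 letters TGANTCA (7.33%) and the kappa-B site (1.30%) were in none of the 8. A match in these letters is a description and not a shown binding site.

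Ptgis, the prostacyclin synthase, was at 99.2, 106, 107 and 103 CPM with AngII, 111, 111, 121 and 106 CPM with HNG, and 104, 99.5, 110 and 100 CPM with MOTS-c. The groups overlapped in CPM, with the lowest HNG library within the AngII range, whereas in FPKM all HNG libraries (59.49 to 68.3) lay just above all AngII libraries (54.9 to 59.48), with a limma adjusted p of 0.155 on log2(FPKM + 1). The log2 fold change was 0.12 (SE 0.047, 95% interval 0.015 to 0.22, unadjusted p = 0.0276, edgeR adjusted p = 0.182) for HNG against AngII and -0.0064 (95% interval -0.091 to 0.078) for MOTS-c. Its counts of 3123 to 4238 per library make it the most precisely measured of the 10 genes.

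Hpgds, the haematopoietic prostaglandin D synthase known from mast cells and macrophages, had the smallest unadjusted p of the 10 genes in MOTS-c against AngII. It was at 9.61, 8.76, 8.76 and 9.41 CPM with AngII, 9.71, 8.26, 7.43 and 10.3 CPM with HNG, and 7.42, 6.16, 7.68 and 6.95 CPM with MOTS-c. All 4 MOTS-c libraries lay below all 4 AngII libraries, as 3.44% of genes tested did in either direction, and the HNG libraries overlapped with both groups. For MOTS-c the log2 fold change was -0.38 (SE 0.086, 95% interval -0.56 to -0.19, unadjusted p = 7.5e-04), and with adjustment over all genes p was 0.924. Between the peptides it was 0.34 (SE 0.12, edgeR adjusted p = 0.125), and for HNG against AngII -0.031 (adjusted p = 0.914).

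In FPKM the picture for Hpgds was weaker. The level was 1.69, 1.51, 1.75 and 1.73 FPKM with AngII, 2.04, 1.49, 1.70 and 2.11 FPKM with HNG, and 1.45, 1.46, 1.34 and 1.69 FPKM with MOTS-c, so that the MOTS-c and AngII ranges overlapped. The MOTS-c difference was -0.10 on log2(FPKM + 1), which understates changes of low genes such as this one (limma, unadjusted p = 0.0968), and -0.16 on log2(FPKM + 0.1) (unadjusted p = 0.123). For HNG against AngII the sign turned on both scales, to 0.083 and 0.12. The gene length implied by count and FPKM was not constant for Hpgds but ran from 4098 to 5757 bases between libraries. Such a spread was 1.02-fold at the median of 12143 features with at least 50 counts in every library, and above 1.2-fold for 7.74% of them. It was 1.40-fold for Hpgds, 1.69-fold for Ptger4 and 1.73-fold for Ptger2, and at most 1.05-fold for the other 7 genes. Ptger2, with 19 to 49 counts per library, lies outside that set. In the RefSeq annotation Hpgds overlaps with Smarcad1 and with a pseudogene, Ptger2 and Ptger4 each with a lncRNA gene, and whether strand was used in counting is not given in the sources used here, so reads of overlapping genes may be mixed.

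**Figure D4:**
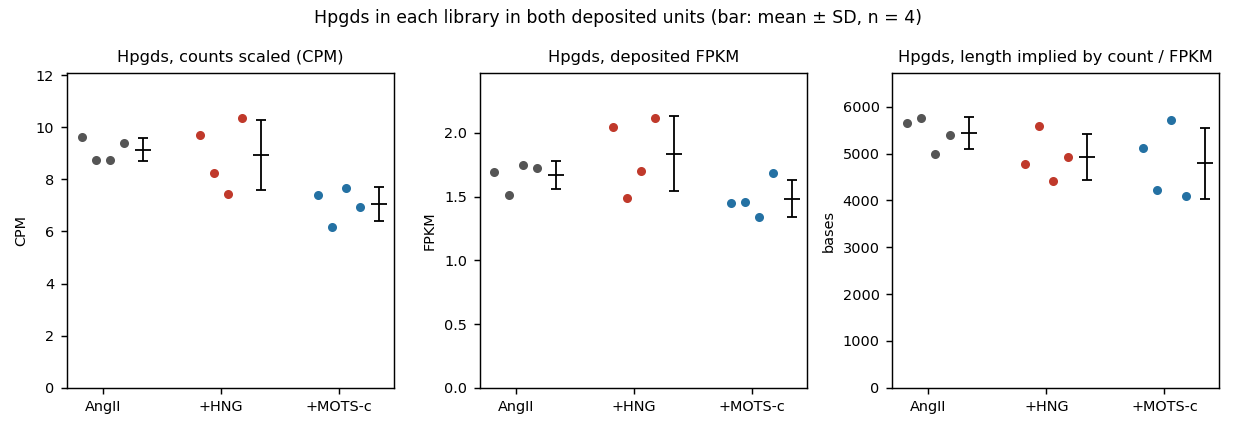
Hpgds in every library as CPM, as deposited FPKM and as the gene length implied by count and FPKM (points), with the group mean and SD (n = 4), all axes starting at 0. The 4 AngII+MOTS-c libraries lie below the 4 AngII libraries in CPM and overlap with them in FPKM, where the implied length varies from 4098 to 5757 bases.

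The defining markers of mast cells were at or near 0. Of 11 mast cell markers in the tables, 6 had 0 counts in all libraries and 8 had a mean below 0.1 CPM (Cpa3, Cma1, Tpsab1, Tpsb2, Mcpt2, Mcpt1l1, Fcer1a and Ms4a2). The summed level of 18.1 to 24.6 CPM came mostly from Kit and Gata2, which other cells share. Macrophage markers were present (16 of 16, none at 0 in all libraries, though Cd163 had only 0 to 18 counts). They summed to 319 to 388 CPM with AngII and 315 to 380 CPM with MOTS-c, with overlapping ranges. The part of either cell type in the Hpgds level was not tested.

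Ptgds, the lipocalin-type prostaglandin D synthase, was at 1.18, 1.23, 1.19 and 1.15 CPM with AngII, 0.818, 0.629, 1.36 and 1.12 CPM with HNG, and 0.811, 1.01, 0.841 and 1.29 CPM with MOTS-c. The AngII libraries lay close together, within a coefficient of variation of 2.78% where counting error alone gives 15.3%, and both other groups spread around and below them. The log2 fold changes of -0.27 (SE 0.24) for HNG and -0.26 (SE 0.20) for MOTS-c against AngII did not pass the edgeR test (adjusted p = 0.591 and 0.936).

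Hpgd, the 15-hydroxyprostaglandin dehydrogenase that starts prostaglandin breakdown, was at 1.47, 0.942, 1.12 and 0.987 CPM with AngII, 1.35, 1.23, 0.876 and 1.21 CPM with HNG, and 0.666, 0.906, 1.16 and 0.888 CPM with MOTS-c. All groups overlapped, and 23 to 56 counts per library lay behind the levels. The log2 fold change against AngII was 0.043 (95% interval -0.42 to 0.51) for HNG and -0.33 (95% interval -0.83 to 0.17) for MOTS-c, both of which include 0.

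Among the 3 receptors Ptger4, Ptgir and Ptger2, Ptger4 had the highest level per length. It was at 12.3, 10.4, 11.5 and 13.1 CPM with AngII, 13.0, 12.2, 12.9 and 14.6 CPM with HNG, and 12.9, 11.2, 11.8 and 12.9 CPM with MOTS-c. HNG gave a log2 fold change of 0.16 (95% interval -0.032 to 0.35, edgeR adjusted p = 0.349), within overlapping groups. In FPKM the library AngII+HNG 2 stood apart at 2.96 while its CPM was the lowest of the group, with an implied gene length of 4162 bases.

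Ptgir, the prostacyclin receptor and thus the partner of Ptgis, was at 0.893, 1.46, 1.58 and 1.47 CPM with AngII, 2.13, 1.34, 2.39 and 1.10 CPM with HNG, and 0.927, 1.04, 1.79 and 1.38 CPM with MOTS-c. The HNG libraries were split, with 2 above and 2 below the highest AngII library. Its log2 fold change with HNG was 0.36 (SE 0.27, 95% interval -0.21 to 0.93, edgeR adjusted p = 0.502).

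Ptger2, the other cyclic AMP-coupled receptor of prostaglandin E2, had the lowest level, with 19 to 49 counts per library. It was at 0.709, 1.14, 0.578 and 0.827 CPM with AngII, 0.924, 0.813, 0.816 and 1.38 CPM with HNG, and 0.782, 0.853, 0.701 and 0.674 CPM with MOTS-c. All groups overlapped, and the log2 fold change of 0.27 for HNG against AngII (95% interval -0.30 to 0.85) did not pass the test.

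The remaining genes of the pathway were taken from lists written with earlier results of these libraries known. In AngII+HNG against AngII, 2 of 23 tested genes in the lists of arachidonate release (6 tested), other prostanoid synthases (7), transport and inactivation (5) and other receptors (5) were called, Slco2a1 higher and Ptgfr lower. Over all genes tested 3.4% were called higher and 2.58% lower. At an unadjusted p below 0.05 they were 3 of 6, 2 of 7, 3 of 5 and 1 of 5 in the same order, where 20.3% of all genes were. In MOTS-c against AngII none of these lists held a call in edgeR's test, with 3 of the 23 genes at an unadjusted p below 0.05 (5.05% of all genes). Between the peptides Slco2a1 and Ptgr1 were higher with HNG (2.64% of all genes were called higher) and Ptgfr was lower (1.77%).

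Slco2a1, the prostaglandin transporter that carries prostaglandins into the cell for breakdown, rose with HNG. It was at 13.2, 14.0, 12.1 and 14.3 CPM with AngII, 17.1, 17.2, 15.2 and 17.0 CPM with HNG and 13.2, 13.5, 12.8 and 13.1 CPM with MOTS-c. The HNG libraries overlapped with neither of the other groups (13.6% of all genes did not overlap between AngII+HNG and AngII, and 12.5% between the peptides). The log2 fold change was 0.31 (SE 0.073, edgeR adjusted p = 0.0243) against AngII and 0.34 (SE 0.068, adjusted p = 0.0136) against AngII+MOTS-c. The call against AngII was lost without AngII 1 (adjusted p = 0.0798), AngII 2 (0.0523), AngII 3 (0.0798), AngII+HNG 2 (0.0751) or AngII+HNG 4 (0.0625), and that against AngII+MOTS-c without AngII+HNG 2 (0.0510) and with the library-name number as a block (0.0799). Without AngII+HNG 3, its lowest HNG library, the values were 0.35 (adjusted p = 0.0115) and 0.38 (0.00612).

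Ptgfr, the receptor of prostaglandin F2α, fell with HNG. It was at 108, 102, 90.6 and 99.4 CPM with AngII, 75.6, 82.9, 66.2 and 81.9 CPM with HNG, and 88.6, 105, 89.5 and 100 CPM with MOTS-c. All 4 HNG libraries lay below all others (13.6% of all genes did not overlap between AngII+HNG and AngII in either direction, and 12.5% between the peptides). The log2 fold change was -0.38 (SE 0.070, edgeR adjusted p = 0.00713) against AngII and -0.32 (SE 0.074, adjusted p = 0.0258) against AngII+MOTS-c. The first call held in all 18 alternatives, with an adjusted p of at most 0.0319. The second was lost in limma on FPKM with either pseudocount (0.0769 and 0.0720), with the library-name block (0.0584), and without AngII+HNG 1 (0.0641), AngII+MOTS-c 2 (0.0809) or AngII+MOTS-c 4 (0.0658). Without AngII+HNG 3, the lowest library, the values were -0.32 (adjusted p = 0.00519) and -0.26 (0.0304).

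Ptgr1, a prostaglandin reductase that acts on prostaglandin metabolites downstream of Hpgd, was at 16.9, 16.9, 16.6 and 15.4 CPM with AngII, 18.2, 18.1, 20.2 and 18.3 CPM with HNG and 15.6, 16.6, 13.4 and 13.4 CPM with MOTS-c. Between the peptides the log2 fold change was 0.34 (SE 0.082, edgeR adjusted p = 0.0358), against 0.19 (adjusted p = 0.112) for HNG and -0.16 (adjusted p = 0.924) for MOTS-c in relation to AngII. The call was lost with the library-name block (0.0699) and without any one of the 4 HNG libraries (0.0519, 0.0768, 0.0682 and 0.0671) or MOTS-c libraries 1, 3 or 4 (0.0655, 0.115 and 0.0853). The log2 fold change was 0.30 without AngII+HNG 3, the highest library.

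**Figure D5:**
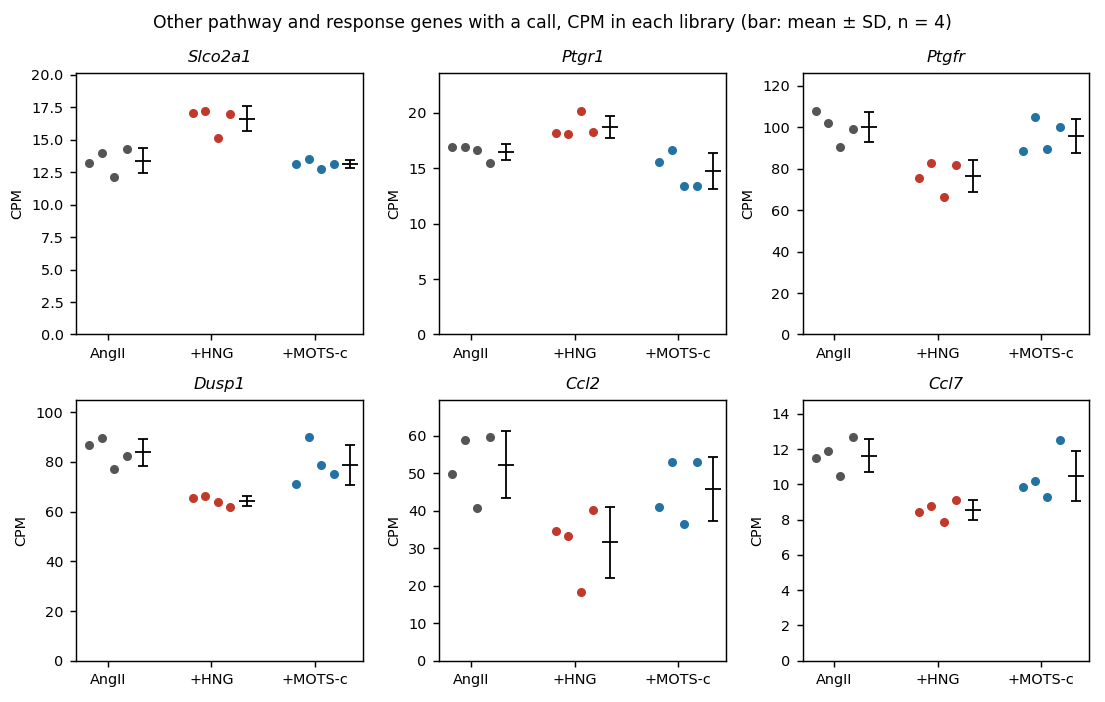
CPM of Slco2a1, Ptgr1, Ptgfr, Dusp1, Ccl2 and Ccl7 in every library (points, in order of the replicate number within a group) with the group mean and SD (n = 4), all axes starting at 0. The 4 AngII+HNG libraries lie apart from the 4 AngII libraries for each of the 6 genes, as they did for 13.6% of all genes tested. The 6 genes are shown because they were called in these same libraries.

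Other genes of the pathway gave no call. Of the 6 tested genes of arachidonate release, 5 were higher with HNG against AngII and 1, Plaa, was lower. Pla2g5 was at 0.29 (edgeR unadjusted p = 0.00861, adjusted p = 0.0955) and Pla2g6 at 0.21 (unadjusted p = 0.0181, adjusted p = 0.145). Both are named after their values were seen. The most abundant by FPKM in their lists were Pla2g4a, the cytosolic phospholipase that releases arachidonic acid, with a log2 fold change of 0.0085 for HNG against AngII (adjusted p = 0.964), Plaa, the phospholipase A2 activating protein, with -0.13 (adjusted p = 0.130), Ptges3, the cytosolic prostaglandin E synthase, with -0.13 (adjusted p = 0.149), and Akr1b1, which can make prostaglandin F2α, with -0.036 (adjusted p = 0.778). Ptgr2, another prostaglandin reductase, was at 0.061 (adjusted p = 0.517), Ptgfrn, a regulator of Ptgfr, at 0.024 (adjusted p = 0.805), Lta4h, the leukotriene A4 hydrolase, at -0.0036 (adjusted p = 0.985) and Alox5ap, the 5-lipoxygenase activating protein, at 0.53 (adjusted p = 0.288). Slco3a1, a transporter of organic anions, had the highest FPKM of the transport and inactivation list and went the other way from Slco2a1. It was at 38.6, 40.8, 36.8 and 38.3 CPM with AngII and 35.6, 36.5, 33.0 and 33.1 CPM with HNG, without overlap (13.6% of all genes), but did not pass the test (log2 fold change -0.16, SE 0.053, unadjusted p = 0.0107, adjusted p = 0.107). The prostaglandin D2 receptor Ptgdr had 0 counts in all libraries, and the second D2 receptor Ptgdr2 had 1 to 12. Of 12 leukotriene and lipoxygenase genes 6 were tested and none was called. Alox5 was at 1.65, 1.60, 1.22 and 1.68 CPM with AngII and 2.42, 1.84, 1.78 and 3.01 CPM with HNG (log2 fold change 0.55, adjusted p = 0.133), and is named after its value was seen.

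Genes that respond to cyclic AMP or to NF-kappaB, the signalling routes next to these receptors, held 3 calls for HNG against AngII, all lower, among 23 genes tested, where 5.98% of all genes were called and 2.58% were called lower. Of 14 cyclic AMP response genes 1 was called, a share near that of all genes: Dusp1, a phosphatase of MAP kinases, at 86.7, 89.5, 77.0 and 82.4 CPM with AngII and 65.4, 66.4, 63.6 and 61.8 CPM with HNG (log2 fold change -0.38, SE 0.051, edgeR adjusted p = 0.00102). Of 9 tested NF-kappaB genes 2 were called, the chemokines Ccl7 (log2 fold change -0.44, adjusted p = 0.00914) and Ccl2 (-0.72, adjusted p = 0.0387). The Ccl2 call was lost in DESeq2 (0.0671), in limma on FPKM (0.0904 and 0.0851) and without AngII 1 (0.0884), AngII 2 (0.116), AngII 4 (0.0904), AngII+HNG 1 (0.0588) or AngII+HNG 2 (0.0838). Without AngII+HNG 3 the values against AngII were -0.54 for Ccl2 (adjusted p = 0.0151), -0.41 for Ccl7 (0.0159) and -0.38 for Dusp1 (0.00116). Between the peptides Dusp1 was lower with HNG (-0.29, adjusted p = 0.0207) and was not called without AngII+HNG 4 (0.0676) or AngII+MOTS-c 3 (0.0535), nor in limma on FPKM (0.0592 and 0.0565). Its value was -0.29 (0.0309) without AngII+HNG 3.

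Some genes of the cell type marker lists, those of fibroblasts included, were called with HNG against AngII as well, where 3.4% of all genes were called higher and 2.58% lower. The 16 macrophage markers, none at 0 in all libraries, summed to 425 to 554 CPM with HNG, with no overlap with the other groups, and 4 of the 15 tested were called higher against AngII (Lyz2, Cd68, Mrc1 and Ptprc). The 11 endothelial markers, none at 0, summed to 106 to 117 CPM with HNG against 84.1 to 94.7 CPM with AngII and 87.6 to 94.5 CPM with MOTS-c, with 4 of 11 called higher (Tek, Tie1, Kdr and Egfl7). The 10 smooth muscle and pericyte markers, none at 0, summed to 5847 to 6356 CPM with HNG against 7354 to 7624 CPM with AngII and 6916 to 7563 CPM with MOTS-c, with 5 of 10 called lower (Acta2, Tagln, Cnn1, Myh11 and Notch3). Acta2 encodes α-SMA, which the study used as a marker of fibroblast activation, so it is not particular to smooth muscle cells. Of the 11 cardiomyocyte markers Tnni3 was called higher (log2 fold change 0.43, edgeR adjusted p = 0.0131), and of the 11 fibroblast markers Tcf21 (0.28, adjusted p = 0.00746) and Thy1 (0.17, adjusted p = 0.0220). Against AngII 12 of 15 tested macrophage and 9 of 11 endothelial markers were higher with HNG (51.3% of all genes). In either direction, 10 of 15 and 7 of 11 had an unadjusted edgeR p below 0.05 (20.3% of all genes). Between the peptides 5 of 15 and 2 of 11 were called higher (2.64% of all genes). Most of the macrophage and endothelial markers were not called, and 3 of 15 and 2 of 11 had a negative log2 fold change against AngII, among them Adgre1 (-0.36, unadjusted p = 0.0284, adjusted p = 0.185), C1qc (-0.43, adjusted p = 0.255) and Erg (-0.30, unadjusted p = 0.0303, adjusted p = 0.191), all chosen after their values were seen. The part of these cell types in the levels of Ptges, Slco2a1, Ptgr1, Ptgfr, Dusp1, Ccl2 and Ccl7 was not tested.

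The genes whose pattern was most like that of Ptges were found by Pearson's r of log2 CPM over the 12 libraries among 12191 named genes whose mean was 1 CPM or more. They were Slc29a1 (r = 0.907), Amph (r = 0.899) and Clec4a1 (r = 0.896). The libraries share the 3 treatments, and these values are a description of the closest genes among many.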

How the data were processed

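The mRNA of rat atrial fibroblasts was sequenced in 12 libraries, 4 per group, paired-end on a DNBSEQ platform. Per the labels, groups and replicate numbers come from the sample titles; doses, times and serum come from the study's methods. For 22850 features the authors deposited raw read counts, as whole numbers without any scaling. In a second table the authors deposited FPKM, the same measurements scaled to gene length and to the size of the library. The submitters' processing notes name HISAT2, Picard 1.41 and SAMtools 0.1.18 with no role, and the counting tool, strand setting and genome build are not given in the sources used here. Of the features 320 carry no identifier of an annotated gene and hold 0.193% of the counts. Depth was 27960586 to 38322354 counts per library. The floor of 3 counts covers counting error only, while the 95% intervals of fold changes come from the fits and include the spread between libraries.

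Counts were fitted in R 4.3.3 with edgeR 4.0.16 (filterByExpr, TMM, glmQLFit and glmQLFTest) on the 8 libraries of each comparison. P-values were adjusted by the Benjamini-Hochberg method over all genes tested, and a gene was called at an adjusted p below 0.05. The scripts were tested on simulated data. DESeq2 1.42.0 and limma 3.58.1, the latter on log2(FPKM + 1) and log2(FPKM + 0.1), served as alternatives, beside other scaling and filters, all libraries in one fit, replicate blocks, summed libraries and leaving out each library. The members and all gene lists were chosen with earlier results of these data known. Named were the 10 members, every called gene of 5 pathway lists with the 2 of highest mean FPKM in each, called genes of the cyclic AMP and NF-kappaB lists, and the 3 genes most like a called member. Promoter windows of RefSeq (GRCr8) were searched for 7 motifs on both strands, the kappa-B site among them.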

Additional observations from a re-analysis of the deposited data

How the results depend on the processing

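Each of the 30 values of the members (10 genes in 3 comparisons) was refitted under 18 alternatives. Of these 540 refits 485 kept the direction and the side of the threshold, 6 lost the call of Ptges between the peptides and 49, in 12 of the values, turned a small uncalled value around 0. Of the 324 refits of the 6 other called genes (Slco2a1, Ptgr1 and Ptgfr of the pathway, Dusp1, Ccl2 and Ccl7 of the response lists) 288 kept both, 33 lost a call, 1 gained one and 2 turned. No member was called against AngII by HNG or by MOTS-c in any alternative. Between the peptides the count of 1 called member fell to 0 with the library-name number as a block and with libraries 2 and 3 summed, and was 0 to 1 on leaving out each library (0 without AngII+HNG 1, AngII+HNG 2, AngII+MOTS-c 1 or AngII+MOTS-c 3). The cause was not tested.

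The replicate numbers were not taken to pair the libraries, since no source used here says that a number marks a shared preparation. Deviations of libraries with the same number correlated at -0.028, -0.028, 0.010 and 0.12 for HNG and AngII, at 0.075, 0.020, 0.071 and 0.13 for MOTS-c and AngII, and at -0.0096, 0.11, 0.10 and 0.25 between the peptides. In that last comparison 3 of the 4 values were 0.10 or more. Replicates 2, 3 and 4 correlated best with their own number there, as did replicates 1, 3 and 4 for MOTS-c and AngII and replicate 4 alone for HNG and AngII, a hint of pairing from the data and not from the design. With the title's replicate number as a block, Ptges between the peptides was at 0.70 (edgeR adjusted p = 0.0288), the members called were 0, 0 and 1, all genes called were 1111, 2 and 1054 in place of 869, 1 and 637, and Ccl2 was called between the peptides (-0.57, adjusted p = 0.00368).

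Counts over all genes called for HNG against AngII fell to 577 with libraries 2 and 3 summed and were 431 to 932 on leaving out each library (431 without AngII 1, 485 without AngII 2, 512 without AngII 3). For MOTS-c they were 4 in DESeq2, 0 with all 12 libraries in one fit, 0 with libraries summed and 0 to 3 on leaving out each library (0 without any one library save AngII+MOTS-c 1, without which they were 3). Between the peptides they rose to 1034 in DESeq2 and 975 with all 12 libraries in one fit, and were 322 to 625 on leaving out each library (416 without AngII+HNG 2, 324, 322 and 389 without AngII+MOTS-c 1, 2 and 3).

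Values that turned were all small. For HNG against AngII, Ptgs1 was -0.0012 in DESeq2 and -0.00063 with RLE size factors, and Hpgds 0.00083 with libraries summed, 0.083 on log2(FPKM + 1) and 0.12 on log2(FPKM + 0.1). For MOTS-c against AngII, the library-name block gave -0.068 for Ptgs1 and 0.017 for Ptgfr, and the FPKM scales gave 0.0013 and 0.0013 for Ptgis and -0.016 and -0.024 for Ptger4. Between the peptides the library-name block gave 0.039 for Ptgs1 and 0.013 for Ptgs2, and the FPKM scales 0.0075 and 0.0090 for Ptgs1. On leaving out each library, HNG against AngII ran from -0.044 to 0.052 for Ptgs1, -0.038 to 0.20 for Hpgd and -0.11 to 0.045 for Hpgds. MOTS-c against AngII ran from -0.051 to 0.056 for Ptgs1, -0.16 to 0.018 for Ptgs2, -0.037 to 0.012 for Ptgis, -0.24 to 0.094 for Ptger2, -0.014 to 0.097 for Ptger4, -0.27 to 0.048 for Ptgir and -0.070 to 0.0064 for Slco2a1. Between the peptides it ran from -0.057 to 0.044 for Ptgs1, -0.13 to 0.039 for Ptgs2 and -0.21 to 0.15 for Ptgds. Ptges, Ptgds, Hpgd, Ptgir and Ptger2 rest on 19 to 104 counts per library. For Ptgir the spread within groups (coefficient of variation 22.9, 35.6 and 30.2% with AngII, HNG and MOTS-c) was above the counting error of 14.4, 13.2 and 15.5%.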
